A study of Mus musculus with 6 samples.

Results

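The colony-stimulating factors and their relatives are the secreted and membrane-bound growth factors that support myeloid blood cells, together with the receptor CSF1R. The members were taken by gene symbol from the deposited gene table and are Csf1, Csf2, Csf3, Il34, Kitl and Csf1r, 6 of 27507 gene identifiers. RNA-seq of poly(A) RNA was made from L929 cells, a mouse fibroblast line, in 3 control samples (genotype WT in the labels) and 3 samples with a knockout of STING, the adaptor through which cyclic dinucleotides made by cGAS switch on TBK1, IRF3 and NF-kB. No treatment is named for either group, and nothing in the labels says how many clones the knockout comes from or that replicates are separate cultures. The p-values therefore reflect the scatter among these 6 samples alone, which could be technical.

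CSF1 (M-CSF) keeps monocytes and macrophages alive and growing through the receptor tyrosine kinase CSF1R, which also binds the structurally unrelated cytokine IL-34. CSF2 (GM-CSF) acts on macrophages, granulocytes and dendritic cells through a private alpha chain and a beta chain that it shares with IL-3 and IL-5, while CSF3 (G-CSF) drives the production of neutrophils through its own receptor. KIT ligand (stem cell factor) acts on blood stem cells, mast cells and melanocytes through KIT, and medium conditioned by L929 cells is a common laboratory source of CSF1 for growing macrophages from bone marrow.

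Stretches of DNA and transcript with NF-kB type motifs and AU-rich elements, which are known control sequences of some cytokine genes, are shown first. RefSeq promoter windows of 300 bases on GRCm38.p6 were held for 3 of the 6 members (Csf1, Csf2 and Kitl), and Csf3, Il34 and Csf1r have no entry. A loose form of the NF-kB site, GGGA and CC with any 4 bases between them, was searched on both strands and had a match in 20.7% of all 32851 windows. The promoter motifs were chosen after these sequences had been seen, so the matches cannot be weighed against that share. Csf1 held the run GGGAAAGTCCC, which matches on both strands with 9 shared bases, starting 155 bases upstream of the start, and a further match 231 bases upstream. The 250 bases upstream of the Csf1 start (chr3:107760470-107760719, minus strand) are printed with the matches in capitals.
Csf1: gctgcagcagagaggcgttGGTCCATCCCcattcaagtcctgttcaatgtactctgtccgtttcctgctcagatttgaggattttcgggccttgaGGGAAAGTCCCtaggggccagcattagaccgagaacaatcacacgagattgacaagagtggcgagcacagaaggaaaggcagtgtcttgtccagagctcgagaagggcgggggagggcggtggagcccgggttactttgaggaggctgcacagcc

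The same motif also occurred in the windows of Kitl, which was tested and not called, and of Csf2, which was too low to test. Kitl held overlapping matches on both strands in chr10:100015658-100015687 (plus strand), 153 bases upstream of the start that the window uses, and a TATA box (TATAAA, present in 13.6% of windows). It held another match 185 bases upstream. GENCODE M21 places a further Kitl start upstream of both, so these bases lie inside 1 of its transcripts. The Csf2 match in chr11:54249858-54249887 (minus strand) lay 22 bases after the RefSeq start, which is itself upstream of the GENCODE M21 start of that gene. The AP-1 type motif TGANTCA, found in 7.81% of windows, matched in none of the 3 windows. The Kitl match nearer the start and the Csf2 match are printed with capitals on the motif.
Kitl: tccaacctctGGGAAGATCCCcgcccttca
Csf2: caggcagggtGGGAAAGGCCtttaaagcag

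AU-rich elements in the 3' UTR, built on the pentamer ATTTA, are bound by factors that shorten the life of cytokine mRNAs. In the longest GENCODE M21 3' UTR of each gene, Csf2 had 28.4 pentamers per kb (9 in 317 bases) and Csf3 had 8.97 per kb (6 in 669 bases), against a median of 1.26 per kb over 20846 genes. Fewer pentamers per kb than Csf2 were found in 99.9% of those genes, and fewer than Csf3 in 98.5%. Kitl had 3.16 per kb, Csf1 1.89, Csf1r 1.80 and Il34 1.65. The nonamer made of ATTTA with TT on each side occurred 4 times in Csf2 and in none of the other members, and it is present in 7.72% of all 3' UTRs. The 30 bases with most pentamers are printed on GRCm38 for the pentamer-rich genes and for Csf1, with each ATTTA in capitals: chr11:54247327-54247356 (minus strand) for Csf2, chr11:98702984-98703013 (plus strand) for Csf3 and chr3:107741109-107741138 (minus strand) for Csf1.
Csf2: tttaaatATTTATTTATTTATTTATTTAtt
Csf3: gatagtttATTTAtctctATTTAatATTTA
Csf1: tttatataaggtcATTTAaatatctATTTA

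Values below are the authors' normalized counts, that is gene counts divided by a size factor of each sample, whose totals were 14382072 to 14526606 per sample. Sting1, listed under its older symbol Tmem173, was at 311 to 329 normalized counts in control and at 80.6 to 93.4 in the knockout, so all 6 libraries went with their labels. Fibroblast identity was checked on 12 markers fixed for this purpose: Vim, Fn1, Col1a1 and Col1a2 were abundant in every library, while Thy1 was low (28.1 to 59.6 normalized counts) and Fap was at 1 count in 1 library and at 0 elsewhere. Dcn and Lum were at 94.4 and 31.8 in control replicate 3, at 32.7 and 11.9 in STING KO replicate 1, and at 0 to 4.99 and 0 to 0.998 in the other libraries. The same control replicate 3 and STING KO replicate 1 stood apart through transcripts typical of liver, with Alb (serum albumin) at 2780 and 2552 normalized counts against 101 to 268 in the other 4 libraries. Results are therefore given with and without these 2 libraries where that ends a call. Tests used limma on log2(normalized count + 0.1), with genes at 10 or more in at least 3 libraries, and calls were made at 0.05 after Benjamini-Hochberg adjustment over 12408 genes.

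Of the 6 members, Csf1 and Csf3 were lower in the knockout. Il34, Kitl and Csf1r were tested and not called, and Csf2 was too low to be tested. No member was called higher. Of all 12408 tested genes 0.258% were called lower and 0% higher (0 genes) with limma, and 0 were higher by limma-voom. At an unadjusted limma p under 0.05, 394 were lower and 397 higher. The authors' deposited test called 6 genes higher (0.043%), against 0.251% lower. All 5 tested members had a negative sign, as had 6306 of all tested genes.

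**Figure D1:**
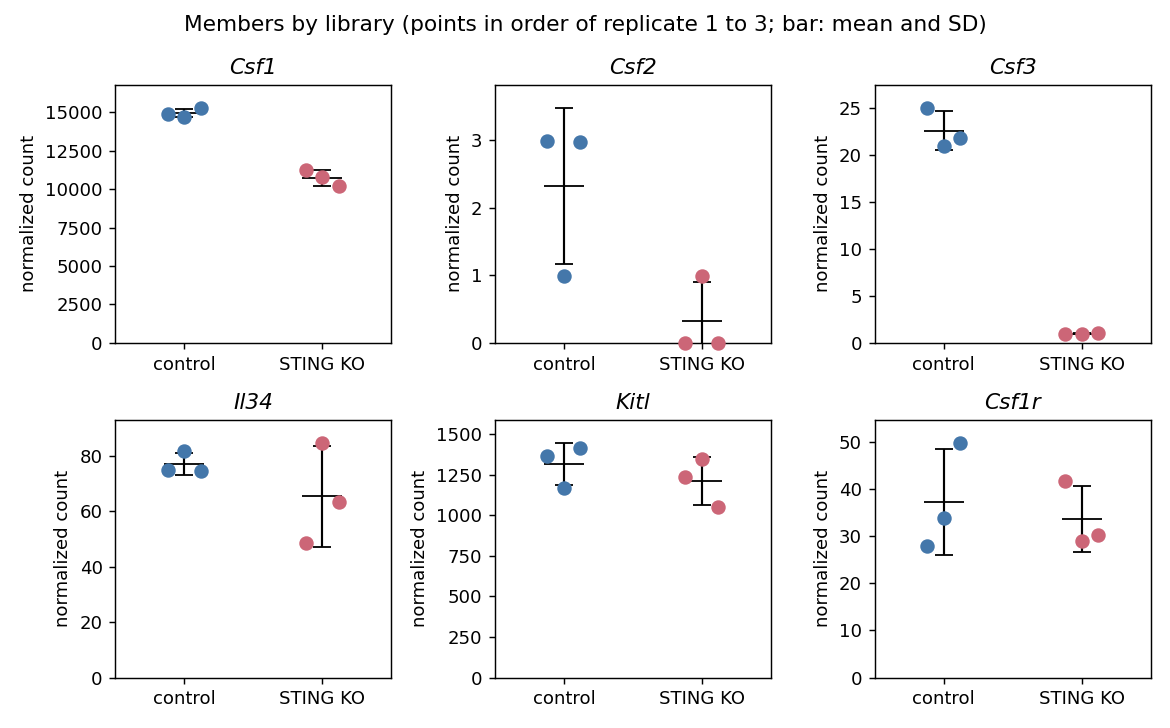
Normalized counts (vertical axis, linear from 0, scaled for each gene) of the 6 members in the 3 control and 3 STING KO libraries, with points for replicates 1 to 3 and bars for the mean and SD. The groups of Csf1 and Csf3 lie apart, and those of Il34, Kitl and Csf1r overlap.

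Csf1 (ENSMUSG00000014599, protein coding, GRCm38 chromosome 3, 107741048 to 107760469, minus strand) had the highest level per length of the family in these cells. The control libraries were at 14877, 14717 and 15246 normalized counts. The STING KO libraries were at 11220, 10790 and 10194. Every STING KO library lay below every control library, as was so for 6.32% of all tested genes (the reverse order held for 5.76%, and for no member). The means were 14947 ± 272 and 10735 ± 515 (SD, n = 3 each), so that 71.8% of the control level was left. The log2 fold change was -0.48 (SE 0.05, 95% interval -0.58 to -0.37, limma adjusted p = 0.0019). It was -0.44 to -0.51 when any 1 library was left out, and Csf1 was called each time. Without both libraries that hold liver transcripts it was -0.50 and no longer past the threshold (limma adjusted p = 0.0836, 2 samples per group), and in the authors' deposited table the adjusted p is 1.66e-14.

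Csf1 stayed an abundant transcript in the knockout. Divided by the length of its longest protein-coding transcript (4176 bases), it was at 3579 ± 65.0 normalized counts per kb in control and 2571 ± 123 in the knockout (SD, n = 3 each). It ranked 190 of 12406 tested genes with a length in control and 337 in the knockout. Which of the secreted and membrane-bound isoforms of CSF1 the reads came from cannot be read from a table of genes.

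Csf3 (ENSMUSG00000038067, chromosome 11, 98701263 to 98703629, plus strand) was a low transcript in control and close to the detection limit in the knockout. The control libraries were at 24.96, 20.9 and 21.9 normalized counts. The STING KO libraries were at 0.99, 0.996 and 1.004, which is 1 read in each. The groups were far apart, with 22.6 ± 2.1 against 0.997 ± 0.00726 (SD, n = 3 each), although the small spread among the STING KO libraries comes from each holding exactly 1 read. Taken as whole reads summed over each group, 68 against 3, control was higher by a ratio of 22.7 with an exact 95% interval of 7.43 to 113, which covers counting error only. The fitted log2 fold change was -4.37 (SE 0.45, limma adjusted p = 0.00231), and it was -3.56 with a pseudocount of 1. Without control replicate 1 the limma adjusted p was 0.063, and it was 0.0017 to 0.0434 without any other single library.

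Csf2 (ENSMUSG00000018916, chromosome 11, 54247271 to 54249667, minus strand) was barely detected in either group. The control libraries were at 2.995, 0.998 and 2.98 normalized counts, and the STING KO libraries at 0, 0.996 and 0. All STING KO values lay below all control values, the lowest control library and the highest STING KO library each holding 1 read. Summed, these were 7 reads against 1, or 6.998 times as many in control, and the exact 95% interval for counting error ran from 0.899 to 315, so that no difference was detectable at this depth. It failed the minimum for the test, and in the authors' deposited table its p is 0.163 with no adjusted value.

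Il34 (ENSMUSG00000031750, chromosome 8, 110741829 to 110805924, minus strand), the other ligand of CSF1R, was at 74.9, 81.8 and 74.5 normalized counts in control. In STING KO it was at 48.5, 84.6 and 63.3. The STING KO libraries spread on both sides of the control range. The log2 fold change was -0.27 (SE 0.19, limma adjusted p = 0.742), and the 95% interval ran from 0.616 to 1.116 times the control level, which includes the 71.8% seen for Csf1. Without STING KO replicate 1 the log2 fold change was -0.07, and without STING KO replicate 2 it was -0.47. Neither was called.

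Kitl (ENSMUSG00000019966, chromosome 10, 100015630 to 100100416, plus strand) was the other well-expressed ligand, at 1364, 1168 and 1413 normalized counts in control. In STING KO it was at 1237, 1344 and 1050. The groups overlapped. The log2 fold change was -0.12 (SE 0.10, limma adjusted p = 0.749), with a 95% interval of 0.787 to 1.07 times control. It moved with single libraries, from -0.02 without STING KO replicate 3 to -0.20 without control replicate 2 or STING KO replicate 2, and was -0.07 without control replicate 3. Kitl was called in none of these fits. The per-library log2 ratio of Kitl to Csf1 was -3.51 ± 0.12 in control and -3.15 ± 0.14 in the knockout (SD, n = 3 each), higher in all 3 STING KO libraries than in any control library. The difference of 0.36 had the smallest p that 3 samples against 3 allow (exact two-sided permutation test, p = 0.1, adjusted over 4 ratios 0.2), so this test cannot decide it.

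The ratio of Csf3 to Csf1 was also apart between the groups, at -9.37 ± 0.13 in control and -13.26 ± 0.08 in the knockout on the log2 scale (SD, n = 3 each). This difference of -3.89 had an exact two-sided permutation p of 0.1 (adjusted 0.2), again the smallest that this test can give. The ratios of Il34 (difference 0.21, exact p = 0.6, adjusted 0.6) and Csf1r (difference 0.35, exact p = 0.3, adjusted 0.4) to Csf1 overlapped between the groups.

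**Figure D2:**
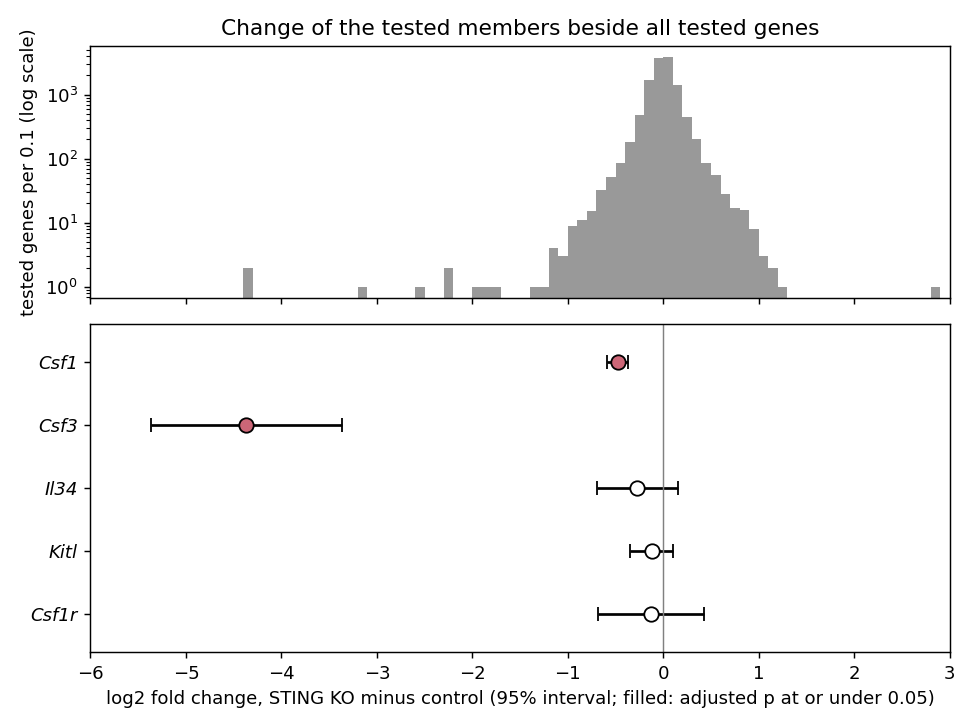
Upper panel: number of tested genes (log axis) by log2 fold change of knockout minus control; lower panel: log2 fold change of the 5 tested members with 95% intervals from limma, filled where called. The intervals of Il34, Kitl and Csf1r cross 0, and Csf3 at -4.37 lies at the far lower end of all genes.

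Ordered by level per kb of the longest protein-coding transcript, the members in control were Csf1, Kitl (233 ± 22.9 normalized counts per kb), Il34 (42.9 ± 2.29), Csf3 (16.0 ± 1.49), Csf1r (7.91 ± 2.39) and Csf2 (2.91 ± 1.44; SD, n = 3 each). No neighbours in that order overlapped between their libraries. In STING KO the order was Csf1, Kitl (214 ± 26.3), Il34 (36.4 ± 10.1), Csf1r (7.13 ± 1.49), Csf3 (0.705 ± 0.00514) and Csf2 (0.415 ± 0.719; SD, n = 3 each), and the last pair overlapped. Csf3 thus stood above Csf1r in control and below it in the knockout. The isoforms in use are not known, so a level per kb is only as good as the chosen length.

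Csf1r (ENSMUSG00000024621, chromosome 18, 61100598 to 61132149, plus strand), the receptor for CSF1 and IL-34 and a hallmark of macrophages, was low in this fibroblast line. The control libraries were at 28.0, 33.9 and 49.7 normalized counts. The STING KO libraries were at 41.6, 28.9 and 30.1. The groups overlapped and the gene was not called (log2 fold change -0.13, SE 0.25, limma adjusted p = 0.883), with a 95% interval of 0.622 to 1.35 times control. The highest library of each group was the one that held liver transcripts. Without control replicate 3 the log2 fold change turned to 0.10, and without both of these libraries it was -0.06.

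Of 12 macrophage markers, 7 were highest in these same libraries (Adgre1, Itgam, Lyz2, Mpeg1, C1qa, Tyrobp and Fcer1g), and the other 5 were not. Lyz2 (lysozyme) was at 97.4 and 71.3 normalized counts in control replicate 3 and STING KO replicate 1, against 16.0 to 22.1 in the other 4. Mpeg1 was at 49.7 and 33.7 against 4.99 to 10.98, and the complement gene C1qa at 30.8 and 25.7 against 1.0 to 13.0. The defining macrophage gene Adgre1 was at 5.0 and 2.0 there and at 0 to 1.0 elsewhere, and Itgam was at 2.0 and 3.0 and at 0 to 1.0 elsewhere. Of the others, Cd14 was highest of all in STING KO replicate 1 (46.5) but lowest among control libraries in replicate 3 (19.9 against 38.9 in both others). Fcgr1 was highest of all in control replicate 3 (7.95) but lowest of all in STING KO replicate 1 (0.99). Cd68 was highest in STING KO replicate 3 (860), and Spi1 and Ptprc did not set these libraries apart. The 12 markers, none of which was at 0 in all libraries, summed to 777 to 954 in control and 823 to 999 in the knockout, mostly from Cd68, and 0 of the 5 tested were called by limma. In bulk RNA, fewer cells of a type and less RNA per cell cannot be told apart, and the part of these transcripts in the Csf1r value was not tested. Csf1r also overlaps Hmgxb3 on the opposite strand (1112 to 1433 normalized counts), and the strand setting of the counting is not given in the sources used here.

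**Figure D3:**
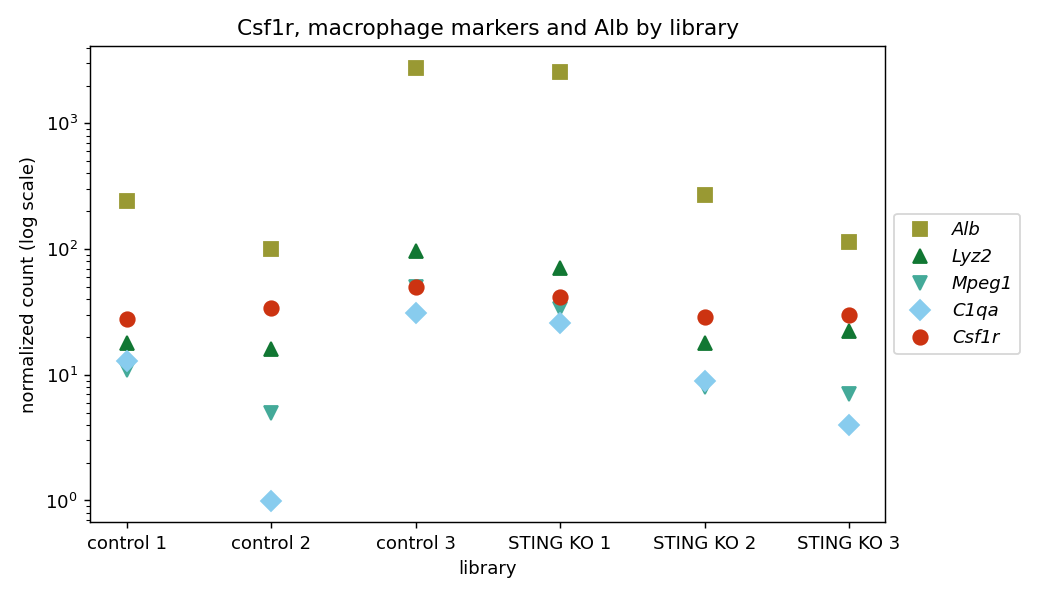
Normalized counts (log axis) of Csf1r, the macrophage markers Lyz2, Mpeg1 and C1qa, and Alb in each of the 6 libraries. Control replicate 3 and STING KO replicate 1 are the highest for each of these genes. Lyz2, Mpeg1 and C1qa were picked from the 7 of 12 macrophage markers that were highest there, and the rest of the 12 were not.

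The receptors for the other ligands were mostly near the detection limit. Of 11 receptor and binding-partner genes 5 were tested and 0 were called (0 at an unadjusted limma p under 0.05, 0 by limma-voom and 0 in the authors' deposited table), with a median log2 fold change of -0.04 against -0.00251 over all tested genes. Csf2rb, the shared beta chain, was well expressed at 745 ± 16.6 normalized counts in control and 710 ± 47.4 in the knockout (SD, n = 3 each). Its relative Csf2rb2, near-identical in sequence, was at 9.93 to 24.0 in control and 7.92 to 17.9 in the knockout, and reads may be shared between these genes. Sdc1 (syndecan-1), a binding partner of IL-34, was at 3498 ± 91.8 and 3396 ± 90.3 (SD, n = 3 each).

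Csf2ra, Csf3r and Kit were low. Csf2ra, which makes the GM-CSF receptor specific, was at 5.99, 0 and 12.9 normalized counts in control and 7.92, 1.99 and 2.01 in the knockout. It too was highest in the libraries with liver transcripts. Csf3r was at 2.995, 0 and 0.993 in control and 1.98, 0.996 and 0 in the knockout. Kit was at about 2 in each control library and at 8.91, 0 and 2.01 in the knockout, where STING KO replicate 1 held most of the reads. Summed over groups, Kit had 6 reads in control and 11 in the knockout, or 0.545 times as many in control, and the exact 95% interval for counting error ran from 0.166 to 1.61.

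Among other haematopoietic growth factors, Il6 and Lif were lower in the knockout. Of 14 genes 8 were tested, 2 were called lower and 0 higher, and the median log2 fold change was -0.09. Over all tested genes 0.258% were called lower and 0% higher, and the median was -0.00251. The list was chosen with earlier results of these data known. Il6 was at 62.9, 51.9 and 57.6 normalized counts in control and 12.9, 10.95 and 11.05 in the knockout, with no overlap. Lif was at 124, 147 and 161 against 81.2, 85.6 and 82.3 (log2 fold change -0.78, SE 0.12, limma adjusted p = 0.0359). The limma adjusted p of Lif rose to 0.121 when control replicate 2 was left out, to 0.202 for control replicate 3, to 0.22 for STING KO replicate 1 and to 0.0997 for STING KO replicate 2. It was 0.801 without both libraries that hold liver transcripts, 0.1002 with no filter on low values and 0.0618 with limma-voom. With a block for same-numbered replicates the limma adjusted p of Lif was 0.17. Angpt1, a ligand of the TIE2 receptor, was abundant and not called, at 5658 ± 429 and 5371 ± 472 (SD, n = 3 each).

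Cxcl12, a chemokine that holds blood stem cells and myeloid cells in the marrow, was untested. It stood at 36.8 and 34.6 normalized counts in control replicate 3 and STING KO replicate 1, and at 1.995 to 6.99 in the other 4 libraries.

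Proteases that can release CSF1 or KIT ligand from the cell surface, or act on matrix, were not called. Of 5 tested, 0 were called by limma, 0 by limma-voom and 0 in the authors' deposited test. With an unadjusted limma p under 0.05, 1 of the 5 was lower, against 394 of all 12408 tested genes. Adam17, a sheddase of CSF1 and KIT ligand, was at 1734 ± 87.0 in control and 1592 ± 93.9 in the knockout (SD, n = 3 each). Mmp9 had the smallest p of the 5, at 83.9, 78.8 and 76.5 against 52.5, 54.8 and 66.3 normalized counts. Its groups did not overlap, but it was not called (limma adjusted p = 0.579).

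Signal transducers below these receptors gave 0 called of 27 tested by limma and by limma-voom. With an unadjusted limma p under 0.05, 2 were lower and 0 higher. Of all 12408 tested genes, 394 were lower and 397 higher at that threshold. The authors' deposited test called 1 of the signal transducers, lower, and 35 of 13942 genes lower. The 1 gene was Stat3, a transcription factor activated by G-CSF and IL-6. It was at 2534, 2398 and 2527 normalized counts in control and 1991, 2071 and 1886 in the knockout, with no overlap (log2 fold change -0.33, SE 0.05, limma adjusted p = 0.0554; 0.000705 in the authors' deposited table). Stat5a and Stat5b, activated by GM-CSF, had log2 fold changes of -0.11 and 0.03 and were not called.

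Genes that regulate transcription of the CSF genes held several decreases. Of 20 tested, 5 were called lower and 0 higher, 19 had a negative sign, and the median log2 fold change was -0.18. Over all 12408 tested genes 0.258% were called lower, 6306 had a negative sign and the median was -0.00251. The list was chosen with earlier results of these data known, so its share called cannot be weighed against that of all genes. The NF-kB subunit genes Relb and Nfkb2 were left at 52.0% and 78.0% of control, Cebpd at 54.7%, the octamer factor gene Pou2f2 at 58.3% and the AP-1 subunit gene Junb at 63.4%. Rela, the main activating NF-kB subunit, was at 2311 in control and 2236 in the knockout on average and was not called (limma adjusted p = 0.812). The limma adjusted p of Nfkb2 rose to 0.237 when control replicate 1 was left out, to 0.181 for control replicate 3 and to 0.217 for STING KO replicate 1. With a block for same-numbered replicates the limma adjusted p of Nfkb2 was 0.41. Without both libraries that hold liver transcripts (2 samples per group) the log2 fold changes were about as large, but the calls ended: -0.35 against -0.36 for Nfkb2 (limma adjusted p = 0.98), -0.68 against -0.66 for Junb (0.0513) and -0.79 against -0.78 for Pou2f2 (0.0619).

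Factors of mRNA decay and stability gave 1 called lower of 11 tested, and 0.258% of all 12408 tested genes were called lower. This list too was chosen with earlier results of these data known. Zc3h12a, encoding the RNase Regnase-1, was at 841, 818 and 752 normalized counts in control and at 223, 199 and 209 in the knockout (log2 fold change -1.93, SE 0.07, limma adjusted p = 1.8e-06). Zfp36, encoding tristetraprolin, which binds ATTTA elements such as those printed for Csf2 and Csf3, was at 283 ± 5.08 and 258 ± 5.70 (SD, n = 3 each; limma adjusted p = 0.738) and was not called. The median log2 fold change of the 11 tested genes was -0.13, against -0.00251 over all tested genes.

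**Figure D4:**
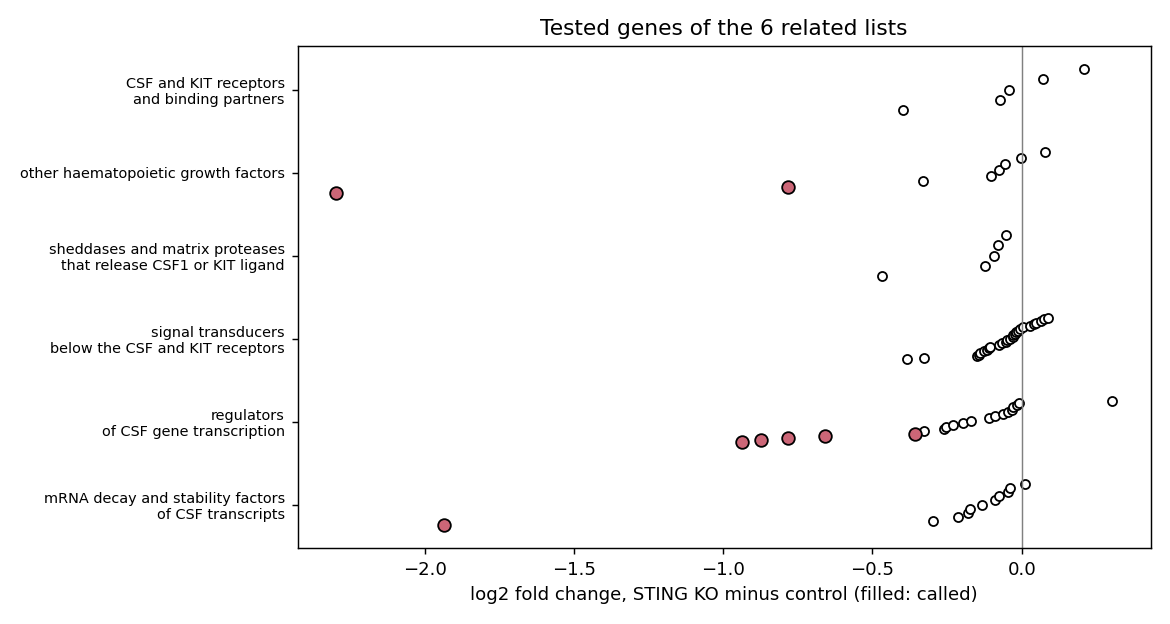
Log2 fold change (STING KO minus control) of each tested gene in 6 lists of receptors, growth factors, proteases, signal transducers, transcriptional regulators and mRNA decay factors, filled where called. The 8 called genes all lie below 0, as does every called gene among all those tested by limma.

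The genes whose values ran most like those of Csf1 over the 6 libraries were Junb (Pearson r = 0.997), Cxcl1 (0.993), Nfe2l1 (0.992), Nfkbiz (0.992) and Gypc (0.992), among 9860 protein-coding genes whose mean reached 5 CPM. Nfe2l1, a transcription factor of proteasome genes, was not called. Gypc was called lower (log2 fold change -0.51, limma adjusted p = 0.0155). Without both libraries that hold liver transcripts it was at -0.54 and not called (limma adjusted p = 0.337). The call of Gypc also ended with a block for same-numbered replicates (limma adjusted p = 0.184). It ended without control replicate 1 (0.154), control replicate 3 (0.121) or STING KO replicate 2 (0.0699) as well. The genes most like Csf3 were Ccl2 (0.999), Ccl7 (0.998), Zc3h12a (0.998), Nfkbiz (0.998) and Sting1 (0.998). These coefficients describe 6 points in 2 groups, where a difference between the groups alone gives a high value. Csf1 and Csf3 had r = 0.983 with each other.

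The members that were not called ran with other genes. The 3 most like Kitl were Ipo7, Fnip1 and Slc38a2 (each r = 0.998), none of them called. Those most like Il34 were Rlim (0.969), Hnrnpf (0.958) and Kif21b (0.958), and those most like Csf1r were Patz1 (0.972), Utp25 (0.964) and Hdac2 (0.962), again with none called. Kitl had r = 0.522 with Csf1, Il34 0.429 and Csf1r 0.315.

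**Figure D5:**
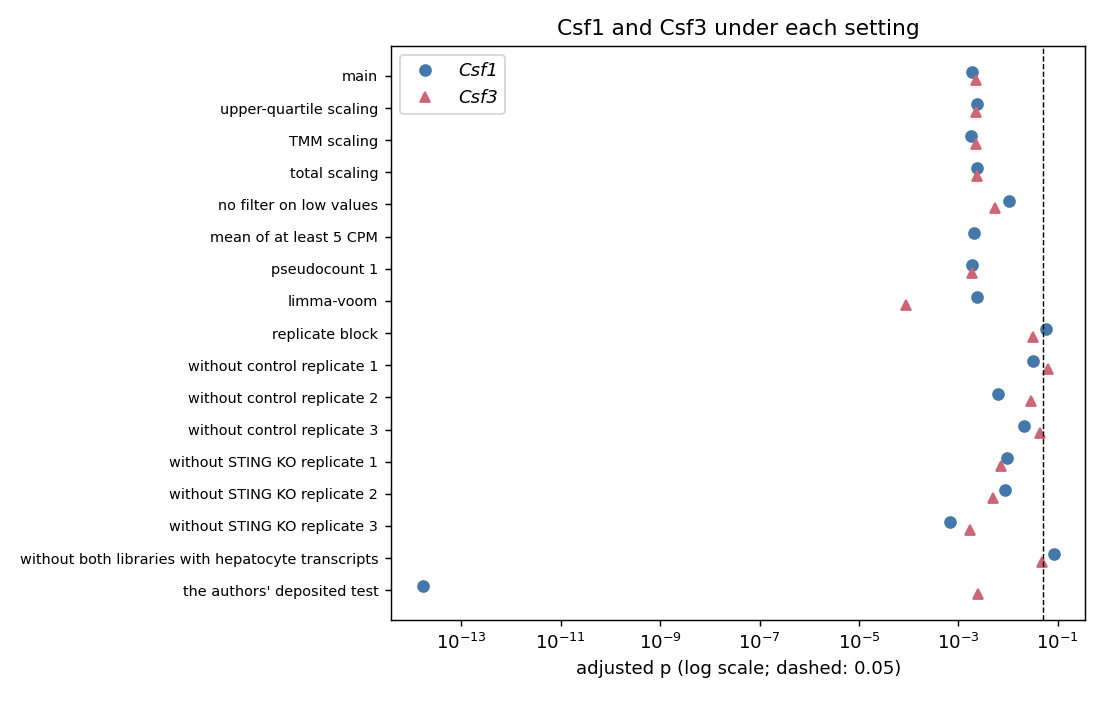
Adjusted p of Csf1 and Csf3 (log axis, dashed line at 0.05) under each way of processing or left-out library. Csf1 lies to the right of the line with the replicate block and without both libraries with hepatocyte transcripts, and Csf3 without control replicate 1.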

How the data were processed

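The authors deposited 1 table with 27821 rows for 27507 gene identifiers (the first row of each was used). For each of 6 samples the deposited signal of a gene is its count divided by a size factor. All values above 0 (100%) came within 0.01 of a whole multiple of 1 step per sample. The authors' own comparison, per the file headers, is held as a log2 fold change and error, a Wald score and raw and adjusted p-values. The submitters' processing notes list DESeq2 1.4.5, RSEM 1.2.12, Bowtie2 2.2.5 and HISAT2 2.0.4, and GRCm38 and mm10. Neither annotation nor strandedness is given in the sources used here.

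A trended limma fit (version 3.58.1, R 4.3.3) was made on log2(value + 0.1) with no covariate, and was tested on simulated data. Fold changes on this scale understate changes of low genes. Pairs of libraries of a group differed by more than counting noise (chi-square per degree of freedom 2.41 to 10.6). None was therefore taken for a second sequencing of the same library, but this does not show that they are separate cultures. Lengths, coordinates and 3' UTRs come from GENCODE M21 (GRCm38) and promoters from RefSeq (GRCm38.p6). The members and lists were chosen with earlier results of these data known. Named genes are the members, Sting1, the called members of each list (or the smallest p), receptors, Alb and the 5 or 3 genes with the highest Pearson r. Other list genes and markers were named after their values were seen, and the promoter motifs were chosen after the promoter sequences were seen. Scaling, filter, pseudocount, tool, block and left-out libraries were varied.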

Additional observations from a re-analysis of the deposited data

How the results depend on the processing

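Csf1 and Csf3 kept a negative sign under each alternative run for them. Over single genes there were 509 values from alternatives, of which 485 left the call as it was, 23 ended a call and 1 (Stat3 in the authors' deposited test) made one. The 2 called members became 1 with a minimum mean of 5 CPM, which removes Csf3, 1 with the replicate block and 1 without both libraries that hold liver transcripts, and were 1 to 2 when 1 library was left out. The count of 32 lower genes was 18 with the replicate block, 13 without those libraries and 21 to 35 when 1 library was left out, and that of 0 higher genes was 6 in the authors' deposited test and 0 to 2 when 1 library was left out. The cause was not tested. Same-numbered samples did not run together: their deviations correlated at -0.183, -0.18 and -0.488. Pairings of unlike numbers were not tested. Alb was at 243, 101 and 2780 normalized counts in control replicates 1, 2 and 3. It was at 268, 113 and 2552 in STING KO replicates 2, 3 and 1. The replicate block joined same-numbered samples only, so a batch shared in another order was not tested. With the replicate block Csf1 was at an adjusted p of 0.0567 and Csf3 at 0.0322. The log2 ratio of Csf3 to Csf1 differed by -3.08 with a pseudocount of 1, and by -3.93 to -3.81 when 1 library was left out. Scaling moved the median of all genes by at most 0.02. The planned count tests were not run on the deposited normalized counts. Depth limits Csf2, Csf3r and Kit, which held at most a few reads in most libraries, and Csf3 in the knockout, with 1 read per library.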
